A study of Mus musculus with 93 samples.

Results

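Macrophages of the brain at postnatal day 8 and day 21 (P8 and P21) were compared with those of late embryonic brain (embryonic days E14.5 and E18.5). The 8 libraries compared, 4 on each side and 2 per age, were chosen by their labels of cell type (Mac, macrophage), tissue (brain) and age, out of 93 bulk libraries of the series. They are P8 replicates 2 and 3 and P21 replicates 1 and 2 on the postnatal side, and replicates 1 and 2 of each embryonic age. A pair of P2 brain libraries was placed between the sides for reference and not tested as a group. The material was polyA RNA of sorted mouse cells, amplified and sequenced by SMART-Seq2. The labels give no strain, genotype, sex, number of animals or sorting gate, so the cells are known only as brain macrophages. The series holds technical and biological replicates without saying which is which, and p-values measure the spread between these libraries, which may be technical.

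Microglia are the resident macrophages of the brain parenchyma. They descend from yolk sac progenitors that enter the brain early in embryonic life, divide there, and reach their adult state over the first weeks after birth, when they engulf dying cells and surplus synapses. The transcription factor Sall1, the membrane protein Tmem119 and the ADP receptor P2ry12 are used to tell them from other macrophages. TGF-beta signalling is needed for that identity, and the growth factor receptor Csf1r for their survival. Around the first postnatal week, microglia of developing white matter are known to express Spp1 (osteopontin), Igf1 and Gpnmb. Macrophages of the meninges and vessels, in contrast, are known for Mrc1, Lyve1 and Cd163.

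Levels are given on the log2 scale of the deposited values, with 1 level per gene and library. A floor of 5.43 was set just above the band of lowest values, and a gene listed at 5.43 was at or under it. Where one side is at the floor, the size of the difference depends on that setting. No read counts were given, so depth is unknown. The number of transcripts above the floor was 23159 and 22145 in the P8 libraries, 18554 and 18474 at P21, 18895 and 21848 at E14.5, and 23482 and 23660 at E18.5. The smaller number at P21 moves with age, and its part in the results was not tested. E14.5 replicate 1 stood apart from its age: across genes its levels correlated at 0.699 with P8 replicate 2 and 0.663 with P8 replicate 3, against 0.592 with E14.5 replicate 2. By offsets among their lowest values, P8 replicate 2 and P21 replicate 2 belonged to a smaller set of 33 libraries and the other 6 to a larger set of 60, so each postnatal age has a library in each set and the embryonic side has none in the smaller.

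All 3 microglia markers were present in every brain library. Sall1 (chr8:89027235-89044162 of GRCm38, minus strand) had levels of 13.46 and 13.55 at P8 and 14.26 and 13.89 at P21, against 12.71 and 13.04 at E14.5 and 12.39 and 12.04 at E18.5. Each postnatal library lay above each embryonic one. P2ry12 (chr3:59216272-59262871, minus strand) had 16.18 and 16.06 at P8 and 15.90 and 15.25 at P21, against 15.52 and 13.94 at E14.5 and 13.24 and 13.21 at E18.5. The sides overlapped through E14.5 replicate 1 alone, which was above P21 replicate 2. Tmem119 (chr5:113793729-113800516, minus strand) had 11.40 and 13.58 at P8 and 16.35 and 16.02 at P21, against 12.18 and 10.80 at E14.5 and 11.16 and 12.14 at E18.5. The P21 libraries were highest by a wide margin, P8 replicate 3 was above all embryonic libraries, and P8 replicate 2 lay among them. Over the 4 against 4 libraries the mean difference was 1.24 for Sall1, 1.87 for P2ry12 and 2.77 for Tmem119, with 2-sided exact permutation p of 0.0286, 0.0571 and 0.0857 and an adjusted p of 0.0857 for each of the 3. The smallest p that 4 against 4 libraries allow is 0.0286. The permutations treat all 8 libraries alike and ignore that each side holds 2 ages with 2 libraries each. In Mac of kidney and skin at the same ages, Sall1 was between 5.43 and 9.48 in all 16 libraries.

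**Figure D1:**
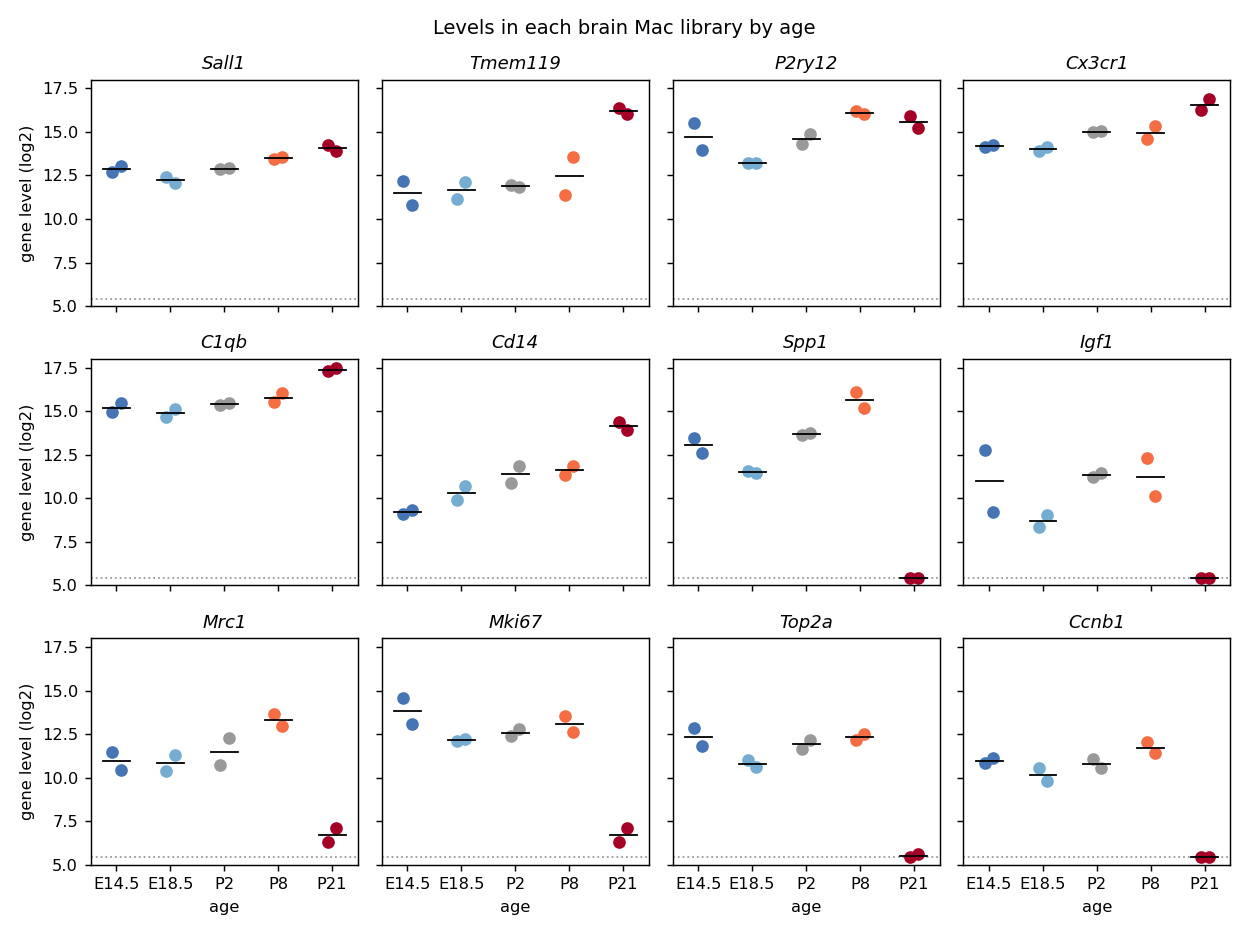
Levels of 12 genes (log2) in each brain Mac library at E14.5, E18.5, P2, P8 and P21. Points are libraries, 2 per age, bars are their means and the dotted line is the floor of 5.43. Tmem119 and Cd14 were highest at P21, and Spp1 lay at the floor in both P21 libraries after levels of 16.12 and 15.22 at P8.

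In the plot of 12 genes by age, Tmem119, Cx3cr1, C1qb and Cd14 were highest at P21. Spp1, Igf1, Mrc1, Mki67, Top2a and Ccnb1 were lowest there, and their P8 levels lay at or above much of the embryonic range.

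Across all genes, limma on the 8 libraries called none of 11333 genes between the postnatal and the embryonic side (0% called, at an adjusted p under 0.05 and a log2 difference of at least 1), although 1028 had an unadjusted p under 0.05. The 2 embryonic ages likewise gave no call for E18.5 against E14.5, with 703 genes at an unadjusted p under 0.05. Each age has 2 libraries, which limits the test. Described without a test, 301 of the 11333 genes (2.66%) had levels that did not overlap between the sides, 198 of them higher (1.75%) and 103 lower (0.909%) after birth.

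Some genes of microglial identity did not overlap between the sides. Of 21 genes listed for that identity, 10 were higher in every postnatal than in every embryonic library and none was lower, and the list's median difference was 1.66, beside 0.09 for all genes. Among the 10 were Sall1, the fractalkine receptor Cx3cr1, the lectin Siglech, the Fc receptor-like Fcrls, the adhesion ligand Selplg, the adhesion G protein-coupled receptor Adgrg1 (GPR56), the secreted proteins Olfml3 and Sparc, and the leukotriene synthase Ltc4s. Cx3cr1 had levels of 14.60 and 15.33 at P8 and 16.24 and 16.89 at P21, against 14.11 and 14.26 at E14.5 and 13.89 and 14.14 at E18.5. The embryonic libraries lay within a narrow range, and P21 was highest. Selplg had 12.21 and 14.55 at P8 and 16.85 and 16.99 at P21, against 10.30 and 12.20 at E14.5 and 11.90 and 12.11 at E18.5, so that P8 replicate 2 was almost level with the embryonic libraries.

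Macrophage genes that are not particular to the brain moved in the same direction in part. Of 21 macrophage core genes, 6 were higher in every postnatal library and none was lower (median difference 1.16): C1qb and C1qc, which encode chains of the complement starter C1q that tags synapses, the Fc receptors Fcgr1 and Fcgr3, the lysosomal protease Lgmn and the lipopolysaccharide co-receptor Cd14. C1qb had 15.51 and 16.05 at P8 and 17.31 and 17.46 at P21, against 14.96 and 15.47 at E14.5 and 14.70 and 15.15 at E18.5. P8 replicate 2 was only just above the highest embryonic library. Fcgr1 had 11.49 and 12.21 at P8 and 13.17 and 13.30 at P21, against 10.99 and 11.27 at E14.5 and 10.79 and 11.11 at E18.5. The gaps between the sides were small for both genes at P8 and wider at P21. Csf1r did not separate the sides: it had 15.57 and 16.49 at P8 and 17.66 and 17.67 at P21, against 15.06 and 15.31 at E14.5 and 15.64 and 15.80 at E18.5.

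The 250 bases before the start of C1qb and of Fcgr1 are shown because these genes did not overlap between the sides and belong to the list in which the letters GAGGAA, the core of the site known for the macrophage factor PU.1 (Spi1), were most frequent. The sequences are from RefSeq (GRCm38.p6), are written 5′ to 3′ on the strand of the gene, and lie at chr4:136886201-136886450 for C1qb and chr3:96293970-96294219 for Fcgr1, both on the minus strand. Capitals mark GAGGAA or its reverse complement TTCCTC.
C1qb: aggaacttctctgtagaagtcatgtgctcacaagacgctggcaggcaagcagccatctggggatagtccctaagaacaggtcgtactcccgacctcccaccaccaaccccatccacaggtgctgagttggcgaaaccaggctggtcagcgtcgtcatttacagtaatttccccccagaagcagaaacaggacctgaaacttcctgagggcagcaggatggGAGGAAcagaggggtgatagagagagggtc
Fcgr1: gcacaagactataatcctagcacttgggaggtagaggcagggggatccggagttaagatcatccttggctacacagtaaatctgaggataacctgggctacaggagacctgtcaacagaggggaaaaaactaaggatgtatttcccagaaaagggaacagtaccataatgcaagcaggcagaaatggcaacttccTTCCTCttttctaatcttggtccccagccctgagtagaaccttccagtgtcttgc
Each of the 2 promoters held 1 match. Searched on both strands, GAGGAA was in 10 of 15 macrophage core promoters with a RefSeq entry (66.7%) and in 2 of 14 microglia identity promoters (14.3%), against 6242 of 27025 promoters of all genes (23.1%). A match describes the letters and is neither a binding site nor a cause.

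More genes passed when the spread was estimated over all 17 brain Mac libraries, which add 2 at P2 and 7 from E10.25 to E12.5. In that fit 40 of 12744 genes were called between the sides (0.314%), 20 higher (0.157%) and 20 lower (0.157%), and 1425 had an unadjusted p under 0.05. The count was sensitive to single libraries: it was 0 without either E18.5 library, 1 without either E10.5 library, 2 without E10.25 replicate 1 or P2 replicate 1, 7 without E14.5 replicate 2 or P8 replicate 3, 10 without E10.25 replicate 2, 13 without P2 replicate 2, 22 without E10.25 replicate 3, 88 without P21 replicate 1 and 98 without P21 replicate 2. It was 31 without E14.5 replicate 1, the library that stood apart, but only 11 of these were among the 40. Most of the 40 calls were thus lost without that library. Of the 21 genes named below, Thrsp passed under 22 of 24 alternatives and the others under fewer, down to 4 for Camkk1 and Prkce.

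Among the genes higher after birth was Thrsp (chr7:97412938-97417730 of GRCm38, minus strand), a regulator of lipid synthesis known from liver and fat. Thrsp had levels of 8.24 and 6.95 at P8 and 11.03 and 10.02 at P21, while all 4 embryonic libraries and both P2 libraries were at the floor. The difference was 3.63 ± 0.46 (SE, limma adjusted p = 0.00774). Gpr165, an orphan G protein-coupled receptor, had 8.33 and 9.83 at P8 and 12.20 and 11.28 at P21, against the floor in both E14.5 libraries and 5.43 and 8.15 at E18.5. It had the largest rise of the genes whose sides did not overlap (4.30 ± 0.76, limma adjusted p = 0.0338). H2-D1, a classical MHC class I heavy chain that presents peptides to CD8 T cells, had 11.81 and 12.96 at P8 and 14.78 and 13.89 at P21, against 11.35 and 11.42 at E14.5 and 10.87 and 10.83 at E18.5, a rise of 2.24 ± 0.43 (limma adjusted p = 0.0396). Its level rose in steps, with P8 nearer to the embryonic libraries than P21 was.

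Other genes that rose were the matrix protein gene Postn (4.15), the sulfotransferase Chst7 (3.90), the Schlafen family member Slfn8 (3.78), the chromatin reader Brpf3 (3.33), the ER quality-control gene Edem2 (2.72) and the kinase Prkce (2.59). Slc1a2, the main glutamate transporter of astrocytes, rose by 4.10 ± 0.71 (limma adjusted p = 0.0338), and Alb, the albumin gene of liver, by 3.23 ± 0.60 (limma adjusted p = 0.0357). Alb had 10.33 and 8.38 at P8 and 7.25 and 9.77 at P21, against 6.53 and 5.43 at E14.5 and 5.43 in both E18.5 libraries. Neither of these is a gene of microglia, and other markers of astrocytes and blood are given below.

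Of the 10 named genes that fell, Itgal encodes the leukocyte integrin LFA-1 alpha chain. Itgal was at the floor in all 4 postnatal libraries, against 10.66 and 11.12 at E14.5 and 8.65 and 9.55 at E18.5 (a difference of -4.56 ± 0.87, limma adjusted p = 0.0369). Several others serve division or growth: Tfdp1, the partner of the E2F factors (-3.27 ± 0.52, limma adjusted p = 0.0298), Zwilch of the kinetochore (-4.22), Cdca8 of the chromosomal passenger complex (-2.85), the telomere helicase Rtel1 (-3.40), and the ribosome assembly genes Rrp15 (-3.63) and Gnl3 (-2.67). Tfdp1 had 9.33 and 9.40 at P8 and the floor in both P21 libraries, against 10.81 and 11.17 at E14.5 and 10.19 and 10.49 at E18.5. Its P8 levels were below the embryonic ones and far above those at P21. The kinase Camkk1 (-4.30), the anion exchanger Slc26a6 (-3.60) and Ermard (-3.58) completed the list.

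**Figure D2:**
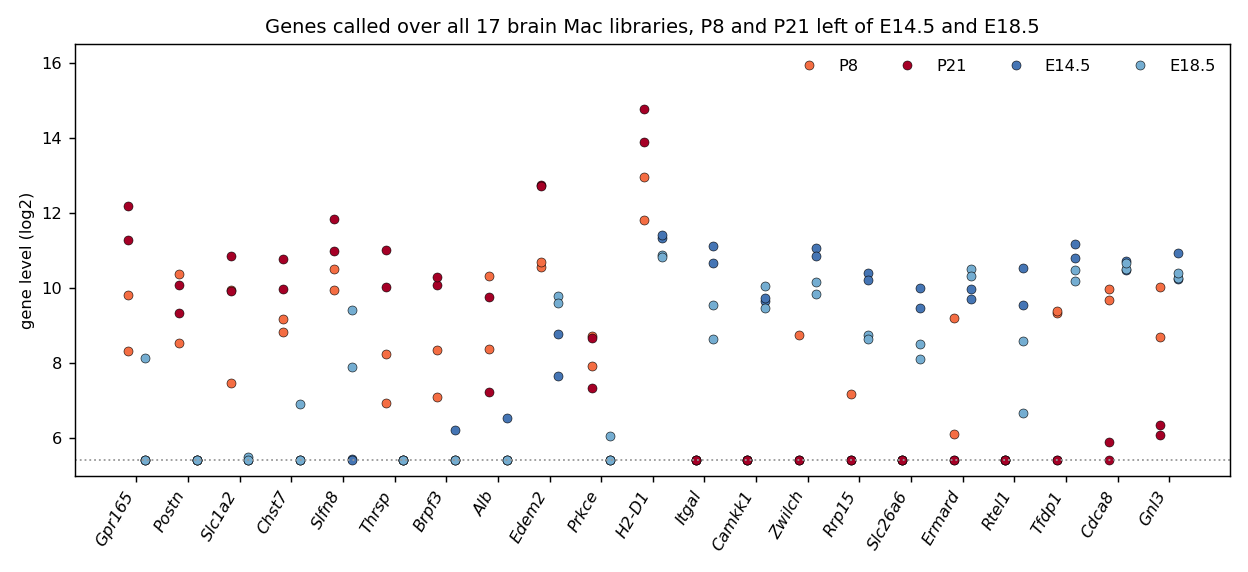
Levels (log2) of the 21 genes called over all 17 brain Mac libraries whose sides did not overlap, with P8 and P21 libraries left of E14.5 and E18.5 libraries for each gene. The dotted line is the floor of 5.43. Thrsp was at the floor in all 4 embryonic libraries and Itgal in all 4 postnatal ones.

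The average of P8 and P21 joined ages that differed from each other. In the fit of 17 libraries, 581 genes were called for P21 against P8 (4.56%), 209 higher (1.64%) and 372 lower (2.92%). Set against the same embryonic libraries, P21 gave 573 calls (4.5%), 237 higher (1.86%) and 336 lower (2.64%), and P8 gave 9 (0.0706%), 8 higher (0.0628%) and 1 lower (0.00785%). The last 2 comparisons share the embryonic libraries, so their counts stand side by side only. The percentages are the shares of all genes to set beside the counts of list members from this fit given below. Median centring of the libraries moved the median difference of all genes from -0.09 to -0.48 for P21 against P8 and from 0 to -0.43 for P21 against the embryonic ages. It moved the share of higher genes among the calls from 36.0% to 16.8% for P21 against P8 and from 41.4% to 18.6% for P21 against the embryonic ages. The P21 against P8 count was 149 without P8 replicate 2, 333 without P8 replicate 3 and 1039 without P21 replicate 1. The P21 against embryonic count was 352 and 332 without E18.5 replicates 1 and 2, 934 without P21 replicate 1 and 1055 without E14.5 replicate 2. Without E14.5 replicate 1 the 2 counts were 871 and 452.

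In the 8 libraries alone, 5 genes were called for P21 against P8 (0.0441%), all lower: Spp1, Top2a, Mrc1, Mki67 and Tacc3. Set against the embryonic ages in the same fit, P21 gave 4 calls (0.0353%), all lower (Spp1, Top2a, Mki67 and Tacc3), and P8 gave none (0%). At an unadjusted p under 0.05 there were 1930 genes for P21 and 554 for P8. The count of 5 was 0 without either P8 library and 1 without any 1 of the other 6. The largest fall was that of Spp1 (chr5:104435118-104441050 of GRCm38, plus strand), the secreted phosphoprotein osteopontin. Spp1 was at the floor in both P21 libraries and had 16.12 and 15.22 at P8, with 13.46 and 12.63 at E14.5, 11.59 and 11.47 at E18.5 and 13.65 and 13.74 at P2. Its level was highest of all at P8 and absent above the floor at P21, a difference of -10.24 ± 0.63 in the 8-library fit (limma adjusted p = 0.00128) and -10.24 ± 0.81 over 17 libraries (limma adjusted p = 9.48e-06). P21 against the embryonic ages gave -6.86 ± 0.70 (limma adjusted p = 9.83e-05), and P8 against them gave 3.38 ± 0.70, which missed the threshold (limma adjusted p = 0.1). The call in the 8-library fit was lost without P8 replicate 2, without P8 replicate 3 and with a term for the replicate number. Top2a, Mki67, Mrc1 and Tacc3 passed there under only 3 or 4 of 17 alternatives, and over 17 libraries all 5 passed under all 24.

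Genes known from microglia of injury and white matter moved with Spp1 in part. Of 22 tested genes of that list, 5 fell and none rose at P21 against P8 (median difference -1.35, beside -0.09 for all genes): Spp1, the growth factor Igf1, the membrane glycoprotein Gpnmb, the chemokine Ccl3 and the annexin Anxa5. At P21 against the embryonic ages 5 fell and none rose (median -1.65), with the fatty acid binding protein Fabp5 in place of Gpnmb. At P8 against the embryonic ages none passed (median 0.40). Igf1 was at the floor in both P21 libraries and had 12.32 and 10.12 at P8, with 12.78 and 9.20 at E14.5 and 8.36 and 9.05 at E18.5. The P21 fall against P8 was -5.79 ± 1.02 (limma adjusted p = 0.00575). Gpnmb was at the floor at P21, against 10.22 and 9.33 at P8. Apoe, another member, did not follow: its levels of 16.42 and 16.01 at P21 lay close to the 16.69 and 17.11 at P8. In the mean over the list's 23 members, P21 libraries had 7.54 and 7.74 and all others at least 8.75.

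Mrc1, the mannose receptor CD206, fell with them. Mrc1 (chr2:14229392-14332057 of GRCm38, plus strand) had 6.33 and 7.10 at P21, against 13.66 and 12.99 at P8, a difference of -6.61 ± 0.90 (limma adjusted p = 0.00119). Its embryonic levels were 11.46 and 10.42 at E14.5 and 10.38 and 11.31 at E18.5. Mrc1 was thus high at P8 and low at P21 in every library. Of 15 tested genes of border-associated macrophages it was the only one that fell at P21 against P8, and none rose. Lyve1 and Cd163 of the same list had 10.19 and 10.24 in P21 replicate 2 and the floor in P21 replicate 1. Those 2 P21 libraries therefore differed in border macrophage markers.

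Genes of mitosis fell together at P21. Of 25 listed genes of the G2 and M phases, 19 fell and none rose at P21 against P8 (median difference -4.74), and 22 fell and none rose at P21 against the embryonic ages (median -4.41). At P8 against the embryonic ages none passed, and the median was 0.33. Mki67 (chr7:135689784-135716361 of GRCm38, minus strand), which encodes the proliferation antigen Ki-67, had 6.29 and 7.13 at P21, against 13.56 and 12.62 at P8, with 14.58 and 13.07 at E14.5 and 12.09 and 12.22 at E18.5. P8 lay within the embryonic range and P21 far under it. The difference of P21 from P8 was -6.38 ± 0.67 (limma adjusted p = 0.000121). Top2a, the topoisomerase that untangles chromosomes before they part, had 5.43 and 5.64 at P21, against 12.18 and 12.49 at P8, with 12.83 and 11.80 at E14.5 and 11.01 and 10.60 at E18.5. Ccnb1, the cyclin that drives entry into mitosis, was at the floor in both P21 libraries, against 12.03 and 11.42 at P8 (a difference of -6.29 ± 0.64, limma adjusted p = 9.18e-05). Cdk1, its kinase partner, had 5.43 and 5.76 at P21, against 11.46 and 10.61 at P8. The mean over the 25 members was 5.68 and 5.77 in the P21 libraries and at least 9.68 in all others.

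The promoters of Top2a, Ccnb1 and Cdk1 are shown as members that fell together at P21. CCAAT, the letters bound by the factor NF-Y, and TTTGAA or TTCGAA, the core of the cell cycle genes homology region (CHR) known from mitotic genes, are in capitals with their reverse complements. The sequences are the 250 bases before the RefSeq start (GRCm38.p6), 5′ to 3′ on the strand of the gene, at chr11:99024190-99024439 for Top2a, chr13:100786487-100786736 for Ccnb1 and chr10:69352913-69353162 for Cdk1, all on the minus strand.
Top2a: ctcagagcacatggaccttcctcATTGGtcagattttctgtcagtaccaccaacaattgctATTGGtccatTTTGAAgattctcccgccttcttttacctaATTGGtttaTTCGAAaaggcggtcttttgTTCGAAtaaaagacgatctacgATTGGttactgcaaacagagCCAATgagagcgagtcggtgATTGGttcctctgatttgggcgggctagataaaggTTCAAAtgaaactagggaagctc
Ccnb1: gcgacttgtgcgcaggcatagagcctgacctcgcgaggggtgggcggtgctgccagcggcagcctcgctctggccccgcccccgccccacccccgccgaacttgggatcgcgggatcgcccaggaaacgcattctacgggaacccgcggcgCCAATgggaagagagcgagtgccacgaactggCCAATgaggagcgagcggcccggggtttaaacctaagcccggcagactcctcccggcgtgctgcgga
Cdk1: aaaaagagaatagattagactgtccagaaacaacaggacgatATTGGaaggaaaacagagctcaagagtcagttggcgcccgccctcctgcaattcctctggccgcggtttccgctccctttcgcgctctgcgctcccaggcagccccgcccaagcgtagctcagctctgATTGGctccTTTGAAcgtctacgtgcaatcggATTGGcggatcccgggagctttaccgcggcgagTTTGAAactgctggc
Top2a held 6 CCAAT and 4 CHR matches, Ccnb1 2 and 0, and Cdk1 3 and 2, and no matches of the motifs overlapped. Of 22 G2 and M phase promoters with a RefSeq entry, 19 held CCAAT on either strand (86.4%), against 11 of 21 for S phase genes (52.4%), 6 of 14 for microglia identity genes (42.9%) and 9331 of 27025 promoters of all genes (34.5%). The CHR letters were in 8 of the 22 (36.4%), against 4719 of all promoters (17.5%). These are counts of letters, drawn on genes chosen by function, and say nothing of binding.

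Genes of DNA replication moved less uniformly. Of 25 S phase genes, 5 fell at P21 against P8 (the helicase subunits Mcm2, Mcm4 and Mcm5, the nucleotide reductase Rrm2 and the flap nuclease Fen1) and 7 at P21 against the embryonic ages, with none higher in either and none called at P8 against the embryonic ages. The median difference was -2.46 for P21 against P8. Rrm2 was at the floor in both P21 libraries, against 11.60 and 11.81 at P8. Mcm5 had 5.43 and 6.06 at P21, against 11.04 and 10.46 at P8. Mcm6, another helicase subunit, was 10.06 in P21 replicate 1 and 5.78 in P21 replicate 2, and did not pass. Related genes also fell at P21 against P8: the inhibitor Cdkn1a (-4.67 ± 1.04, limma adjusted p = 0.0193) and the restrainer of the cycle Rb1 (-3.92 ± 0.96, limma adjusted p = 0.0299), the chromatin genes H2afz, Hmgb2 and Hells (-4.63, -2.94 and -4.65), and the serine synthesis enzyme Psat1 (-4.99 ± 0.80, limma adjusted p = 0.00338). H2afz, which encodes a histone variant, had 10.43 and 8.30 at P21, against 14.24 and 13.75 at P8.

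**Figure D3:**
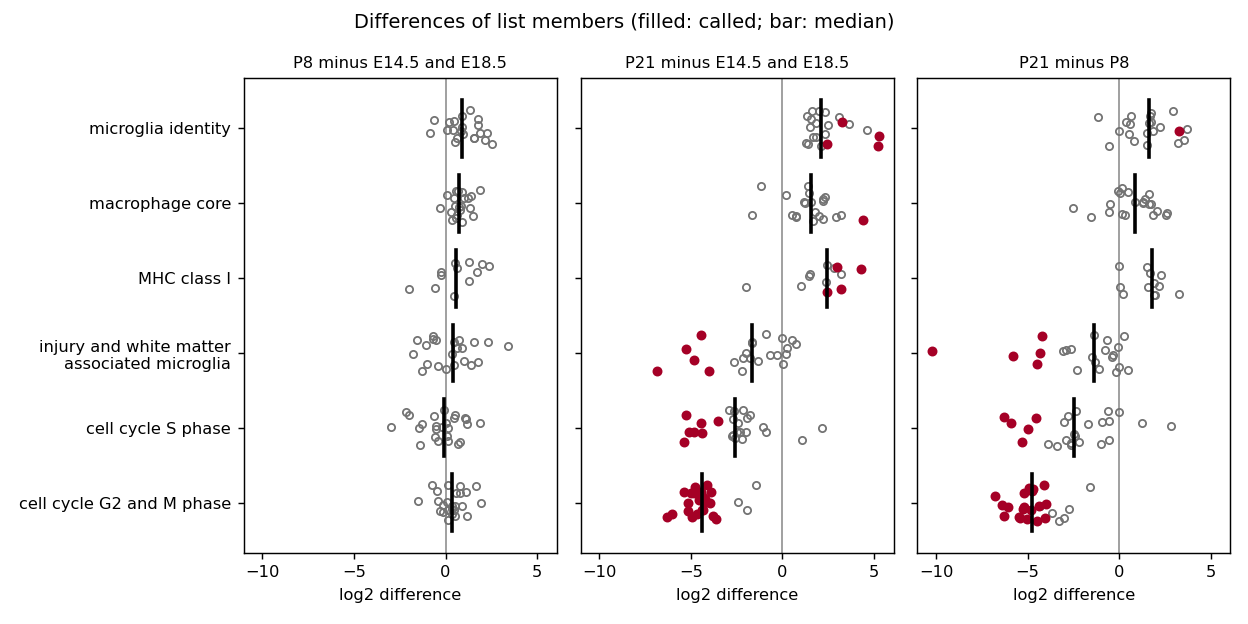
Differences (log2) of single members of 6 gene lists for P8 minus the embryonic ages, P21 minus the embryonic ages and P21 minus P8, from the fit of 17 libraries. Filled points were called and bars are list medians. The G2 and M phase list lies near 0 for P8 (median 0.33) and at medians of -4.41 and -4.74 in the comparisons with P21.

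Some genes of microglial identity rose at P21. Of the 21, 4 rose and none fell at P21 against the embryonic ages (median 2.11): Selplg (5.29 ± 1.06, limma adjusted p = 0.00917), Adgrg1 (5.22 ± 0.99, limma adjusted p = 0.00705), Sparc (3.23 ± 0.80, limma adjusted p = 0.0308) and the zinc finger factor Sall3 (2.41 ± 0.63, limma adjusted p = 0.0383). At P8 against the embryonic ages none passed (median 0.92). At P21 against P8 only Sall3 passed (3.25 ± 0.72, limma adjusted p = 0.0193; list median 1.60). Adgrg1 had 10.61 and 11.45 at P8 and 13.86 and 14.07 at P21, against 5.47 and 9.53 at E14.5 and 10.19 and 9.79 at E18.5. It rose with age apart from E14.5 replicate 1, which was close to the floor. Sall3 had 9.46 and 9.47 at P8 and 12.83 and 12.61 at P21, against 9.32 and 10.98 at E14.5 and 10.65 and 10.29 at E18.5. Its rise was a feature of P21 alone. The 4 called genes held under 24 alternatives for Adgrg1, 23 for Selplg, 18 for Sparc and 12 for Sall3. Tmem119 (4.62 ± 1.38, limma adjusted p = 0.0674) missed the threshold. The median of the list stayed positive for P21 under every alternative, between 1.15 and 2.43 against the embryonic ages.

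Of 29 tested transcription factors of macrophages and microglia, 2 rose and none fell at P21 against the embryonic ages (median difference 0.65). Against P8 these counts were the same (median 0.97). Sall3, with the values above, was 1 of the 2 in each. Of all genes, 1.86% rose at P21 against the embryonic ages and 1.64% against P8. Spi1, Irf8, Runx1 and Mef2c, which act in macrophages from the embryo on, did not pass: Spi1 differed by 1.78 ± 0.76 at P21 against the embryonic ages (limma adjusted p = 0.191) and Irf8 by 1.65 ± 0.82 (limma adjusted p = 0.262).

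Receptors and antigen presentation genes were also among those that rose at P21 against the embryonic ages, where 1.86% of all genes rose. Of 22 TGF-beta pathway genes, 3 rose and none fell (median 0.46): the receptor subunit Tgfbr2 (2.92 ± 0.77, limma adjusted p = 0.0425), the integrin chain Itgb5 and the feedback inhibitor Pmepa1. Tgfbr2 had 11.28 and 12.65 at P8 and 14.21 and 13.77 at P21, against 12.19 and 11.00 at E14.5 and 10.73 and 10.37 at E18.5. Of 12 MHC class I genes, 4 rose and none fell (median 2.43): the heavy chains H2-D1, H2-K1 and H2-T23 and the peptide transporter subunit Tap2. H2-K1 had 10.94 and 12.76 at P8 and 13.99 and 13.48 at P21, against 11.58 and 11.05 at E14.5 and 10.75 and 11.89 at E18.5. The calls of Tgfbr2, Itgb5, H2-K1, H2-T23 and Tap2 held under only 4 to 8 of 24 alternatives, and that of H2-D1 under 24. H2-D1 and H2-K1 are near-identical genes whose reads may be split between them.

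A few sensors of microbes were called at P21 against the embryonic ages, where 1.86% of all genes rose and 2.64% fell. Of 20 tested pattern recognition genes, Cd14, the flagellin receptor Tlr5 and the peptidoglycan sensor Nod1 rose at P21 against the embryonic ages and the lipopolysaccharide receptor Tlr4 fell. Cd14 had 11.37 and 11.88 at P8 and 14.39 and 13.90 at P21, against 9.09 and 9.36 at E14.5 and 9.90 and 10.69 at E18.5, a difference for P21 of 4.39 ± 0.85 (limma adjusted p = 0.00779). Tlr4, the partner of Cd14, was at the floor in both P21 libraries, with 9.11 and 8.61 at P8, 9.75 and 9.96 at E14.5 and 7.59 and 9.19 at E18.5 (P21 against the embryonic ages -3.69 ± 0.93, limma adjusted p = 0.033). Tlr5 had 8.06 and 9.66 at P21 and at most 5.60 in the other libraries of P8 and the embryonic ages. The cytokine Pdgfb rose at P21 against P8 (4.46 ± 0.93, limma adjusted p = 0.0142) and Osm fell. The receptor chain Il6ra (2.44 ± 0.64, limma adjusted p = 0.042) and the chemokine Ccl24 (3.87 ± 0.82, limma adjusted p = 0.012) rose at P21 against the embryonic ages. The call of Il6ra held under only 9 of 24 alternatives, that of Osm under 10 and that of Tlr4 under 16, and those of the other genes named here under 19 or more.

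Complement and phagocytic receptor genes and lysosomal genes did not pass in any of these comparisons. The 26 complement and phagocytic receptor genes had a median difference of 1.16 for P21 and 0.37 for P8 against the embryonic ages. For 27 lysosomal genes the medians were 1.12 and 0.76. C1qa had 13.51 and 14.85 at P8 and 16.70 and 16.84 at P21, against 12.40 and 14.08 at E14.5 and 13.79 and 14.004 at E18.5 (P21 difference 3.20 ± 0.91, limma adjusted p = 0.056). Trem2, the lipid-sensing receptor of phagocytosis, had 13.45 and 14.49 at P8 and 15.97 and 15.40 at P21, against 12.80 and 13.88 at E14.5 and 13.75 and 14.26 at E18.5.

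**Figure D4:**
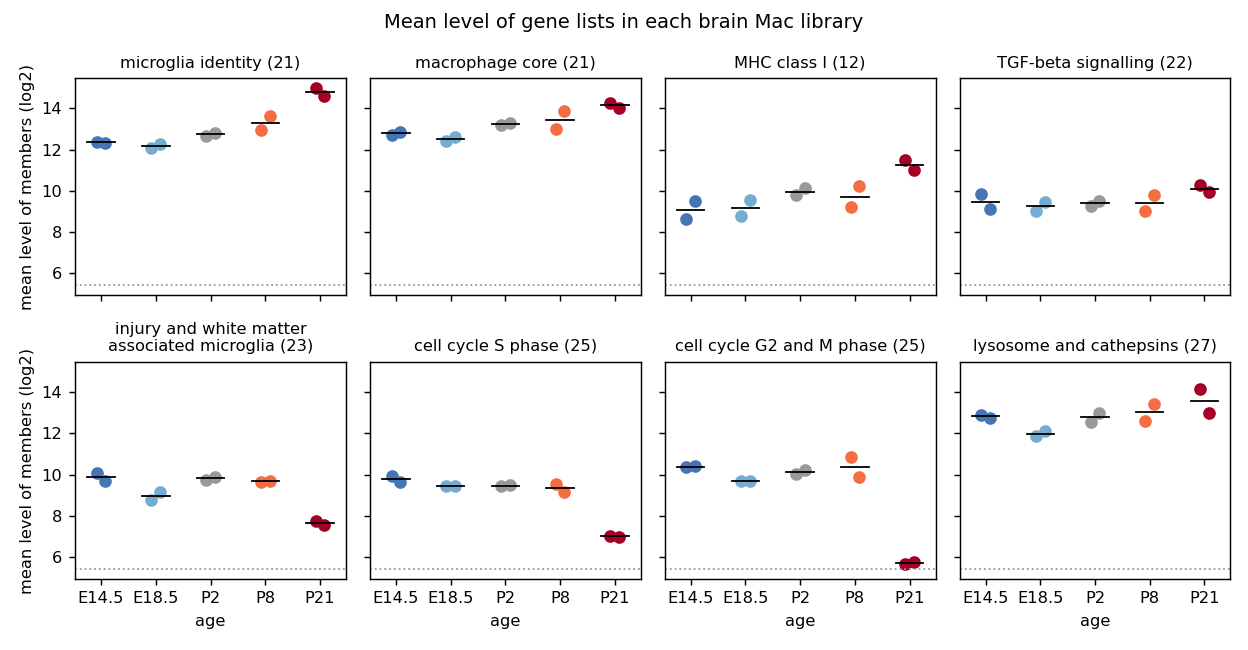
Mean level of the members of 8 gene lists (log2; number of members in brackets) in each brain Mac library by age, with bars for the mean of each age and a dotted line at the floor of 5.43. The microglia identity list had means of 14.58 and 14.97 at P21, against at most 12.39 at the embryonic ages, and the G2 and M phase list had 5.68 and 5.77 at P21.

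Metabolic genes gave few calls. Of all genes, 1.64% rose and 2.92% fell at P21 against P8, and 2.64% fell at P21 against the embryonic ages. Of 20 genes of cholesterol synthesis and export, the synthase Fdps (-4.95 ± 0.84, limma adjusted p = 0.00463) and the esterifying enzyme Soat1 (-3.65 ± 0.87, limma adjusted p = 0.0263) fell at P21 against P8 and none rose (median -2.16). Of 20 glycolysis genes, the lactate exporter Slc16a3 rose at P21 against P8 (4.64 ± 1.07, limma adjusted p = 0.0232), and the glucose transporter Slc2a1 fell at P21 against the embryonic ages (-4.23 ± 0.82, limma adjusted p = 0.00777). Slc16a3 had 9.69 and 10.49 at P21, against 5.47 and 5.43 at P8, with 6.11 and 6.99 at E14.5 and 10.18 and 9.09 at E18.5. Its level was therefore low at P8 and not ordered by age. The RNA-binding protein Igf2bp3, known from fetal tissues, was at the floor in both P21 libraries, against 12.20 and 9.70 at E14.5 and 8.93 and 10.21 at E18.5 (-4.83 ± 0.74, limma adjusted p = 0.00175), with 9.71 and 8.75 at P8.

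The largest differences of P21 from P8 other than those above were rises of Polrmt, Arhgap22, Usp20, Pknox1 and BC037034 and falls of Nmt2 and Map3k1. Pknox1, a homeodomain factor, had 13.18 and 13.37 at P21, against 7.96 and 5.43 at P8, with 10.13 and 6.42 at E14.5 and 9.87 and 8.67 at E18.5 (P21 against P8 6.58 ± 1.17, limma adjusted p = 0.00591). The other 4 rises were between 6.45 and 6.70, and each of these genes also had embryonic libraries well above P8. Nmt2 and Map3k1 both fell by 6.65, and both were highest in E14.5 replicate 1, at 15.21 and 15.12. The 9 genes called at P8 against the embryonic ages were led by Lonrf3 (4.12 ± 0.58, limma adjusted p = 0.029), the DNA repair gene Xrcc5 (3.52), Plppr1 (3.27), Tmem178 (3.07) and Atp6v0d2 (2.95), a subunit of the proton pump, and Wdr4 was the one that fell (-5.23). Lonrf3 had 9.26 and 9.86 at P8 and the floor in all P21 and embryonic libraries. The count of 9 was 0 without either E14.5 library, either E18.5 library, either E10.5 library or E12.5 replicate 2, 4 without E10.25 replicate 1, 5 without E10.25 replicate 3, 14 without E12.5 replicate 1 or P21 replicate 2, 18 without P8 replicate 3 and 29 without P8 replicate 2.

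Among the genes called between the sides, which were chosen by their gap in these libraries, P2 lay nearer to the embryonic side. Of the 20 genes higher after birth in the fit of 17 libraries, the P2 mean was between the 2 sides in 15 (75%), and the median gene had gone 19.3% of the way from the embryonic to the postnatal mean. For the 20 lower genes these were 14 (70%) and 15.7%. The lists varied. Mean levels of the macrophage core list at P2 (13.21 and 13.30) lay within those at P8 (13.02 and 13.86), above the embryonic maximum of 12.855. For the microglia identity list, P2 (12.67 and 12.82) lay between the embryonic maximum of 12.39 and the P8 minimum of 12.935. Sall1 was 12.85 and 12.95, Tmem119 11.93 and 11.86 and P2ry12 14.34 and 14.90 at P2. The Spp1 levels of 13.65 and 13.74 were between those of E18.5 and P8, and Mki67 with 12.39 and 12.77 was at the level of both.

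Markers of other cells were looked for in each library, and in bulk samples fewer cells of a type and less RNA per cell cannot be told apart. All 8 listed neutrophil genes in the table were at the floor in every library, and at most 3 of 9 monocyte genes were above it. The summed level of the astrocyte list was 10.55 to 12.95 in postnatal and 8.46 to 10.18 in embryonic libraries. The glutamate transporter Slc1a2 had 9.96 and 7.47 at P8 and 10.86 and 9.93 at P21, against at most 5.51 in the embryonic libraries, while the defining astrocyte filament gene Gfap was at the floor except for 5.60 in P8 replicate 3 and 7.24 in P21 replicate 2. The summed oligodendrocyte list was 9.15 to 14.34 in postnatal and 9.31 to 10.15 in embryonic libraries, and 13.15 and 14.34 at P21. Mbp, the myelin basic protein gene, had 12.89 and 13.93 at P21, against 7.47 and 10.47 at P8 (4.44 ± 1.21, limma adjusted p = 0.0475) and at most 7.87 in the embryonic libraries (6.67 ± 1.05, limma adjusted p = 0.00221). The Mbp call against P8 held under only 8 of 24 alternatives. The rise came from 2 of its 4 transcripts, and the transcript with the highest mean over all libraries did not follow it. Mag, another myelin gene, rose too (3.61 ± 0.73 at P21 against the embryonic ages, limma adjusted p = 0.00967).

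The neuron list summed to 10.30 to 13.55 in postnatal and 11.28 to 13.20 in embryonic libraries, and the synaptic gene Snap25 stood out at P8 with 9.45 and 9.04. The progenitor genes Nes and Fabp7 fell at P21 against P8 (-4.07 ± 0.95 and -5.09 ± 1.14, limma adjusted p = 0.0238 and 0.0198). The erythroid list summed to 10.21 to 16.60 in postnatal and 8.95 to 10.89 in embryonic libraries, and the highest value was that of P8 replicate 2, with Hba-a2 at 16.07. Pecam1 of endothelium was 10.03 and 9.86 at P21 and at most 7.52 in the other libraries compared. The summed endothelial levels were 7.77 to 10.03 in postnatal and 5.43 to 8.67 in embryonic libraries. At P21 only 1 of the 11 listed genes in the table was above the floor in each library, so those sums were Pecam1 alone. For astrocytes, oligodendrocytes, endothelium and red cells the highest sum was postnatal, but only the astrocyte sums did not overlap between the sides. The part of these markers in the results was not tested. Of 4 sex-linked genes in the table, all Y-linked, 2 fell at P21 against P8 and none rose (median difference -3.04). Ddx3y was at the floor in both P21 libraries, against 11.34 and 10.37 at P8 (limma adjusted p = 0.0238), and Uty had 6.40 and 5.43 at P21, against 11.13 and 10.29 at P8 (limma adjusted p = 0.0496). Kdm5d and Eif2s3y were at 9.67 or above in all 8 libraries. The part of these genes in the results was not tested.

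The brain macrophages were then set against macrophages of kidney and skin at the same ages, with 16 libraries, to ask whether the postnatal change differed between tissues. The interaction term was called for 120 of 13256 genes (0.905%), 49 with a more positive change in brain (0.37%) and 71 with a more negative one (0.536%), and 1525 genes had an unadjusted p under 0.05. The count was 57 and 61 without brain E18.5 replicates 1 and 2, 69 without brain P8 replicate 3 or skin E18.5 replicate 1, 181 without brain P21 replicate 1 and 217 without kidney P21 replicate 2. It was 109 without brain E14.5 replicate 1, and 78 of these were among the 120.

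Among genes whose higher side in brain averaged at least 8, the largest of these differences was in MHC class II. Class II presents antigen to CD4 T cells. Genes lower in brain were not ranked. Of 7 listed class II genes, 4 had a more negative change in brain (median difference -4.37, beside -0.16 for all genes): H2-Ab1, H2-Aa, H2-Eb1 and the master regulator Ciita. H2-Ab1 (chr17:34257689-34269419 of GRCm38, plus strand) in brain had 8.47 and 9.99 at P8 and 10.56 and 8.46 at P21, against 9.18 and 8.79 at E14.5 and 7.58 and 9.24 at E18.5. Its brain levels overlapped between the sides. H2-Aa and H2-Eb1, in contrast, were higher in every postnatal than in every embryonic brain library. H2-Aa in brain had 7.86 and 9.05 at P8 and 8.33 and 7.57 at P21, against 5.43 in both E14.5 libraries and 6.84 and 7.13 at E18.5. H2-Eb1 had 7.67 and 8.98 at P8 and 10.44 and 7.71 at P21, against 5.43 in both E14.5 libraries and 6.80 and 7.01 at E18.5. In brain alone none of 6 tested class II genes was called between the sides, and their median difference was 2.22. In kidney H2-Ab1 had 8.40 and 9.14 at P8 and 17.56 and 17.51 at P21, against 5.43 in both E14.5 libraries and 5.43 and 8.20 at E18.5. In skin it had 17.88 and 18.47 at P8 and 17.97 and 17.52 at P21, against 5.43 in both E14.5 libraries and 12.03 and 13.52 at E18.5. High levels were thus reached by P8 in skin and at P21 in kidney, and in no brain library. The change in brain minus the mean change in kidney and skin was -7.27 ± 0.78 for H2-Ab1 (limma adjusted p = 0.000499), -5.67 ± 0.70 for H2-Aa (limma adjusted p = 0.0016) and -5.18 ± 0.79 for H2-Eb1 (limma adjusted p = 0.00524), and all 3 passed under all 31 alternatives. The ubiquitous genes Thap11 (-5.62 ± 1.18, limma adjusted p = 0.0278) and Eif2b2, a translation factor subunit (-4.76 ± 0.84, limma adjusted p = 0.0125), were the other leading ones at that brain level. In brain, mean levels on the postnatal and embryonic sides were 6.51 and 9.71 for Thap11 and 7.52 and 10.33 for Eif2b2.

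In the other direction, Ccl24, a chemokine for eosinophils, had 8.34 and 8.32 at P8 and 9.65 and 9.80 at P21 in brain, against 5.43 in both E14.5 libraries and 7.10 and 5.43 at E18.5. In kidney Ccl24 was at the floor in all 4 postnatal libraries, against 8.57 and 8.52 at E14.5 and 8.29 and 8.93 at E18.5, so that the direction was opposite to brain. In skin it had 5.43 and 7.80 at P8 and the floor at P21, against 9.13 and 10.504 at E14.5 and 5.43 and 5.84 at E18.5. The difference was 5.60 ± 0.78 (limma adjusted p = 0.0026). The adaptor gene Grap (5.20 ± 0.95), Cdadc1 (5.13 ± 0.997), the Fc receptor-like Fcrl1 (5.06 ± 0.99) and Gpr165 (4.58 ± 0.87) followed among genes at that brain level, with limma adjusted p of 0.0137, 0.0188, 0.0197 and 0.0165. In brain, mean levels on the postnatal and embryonic sides were 10.29 and 7.90 for Grap, 8.96 and 6.51 for Cdadc1, and 10.45 and 7.90 for Fcrl1. The differences of these genes thus also hold the change in kidney and skin. Gpr165 was at the floor in all 4 kidney libraries of each side, while in brain it was between 8.33 and 12.20 after birth. Of 21 microglia identity genes, 4 had a more positive change in brain (Cx3cr1, Siglech, Olfml3 and Fcrls), as did 4 of 21 macrophage core genes (Cd14, Fcgr1, Fcgr3 and Trem2). The markers Sall1, Tmem119 and P2ry12 were not called for this difference between tissues. For Cx3cr1 the change was 1.66 in brain, 1.16 in kidney and -6.55 in skin, and for Trem2 it was 1.16, 0.19 and -5.19, the change in skin being the largest of the 3 for both. For Siglech the changes were 1.48, -2.33 and -3.77.

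**Figure D5:**
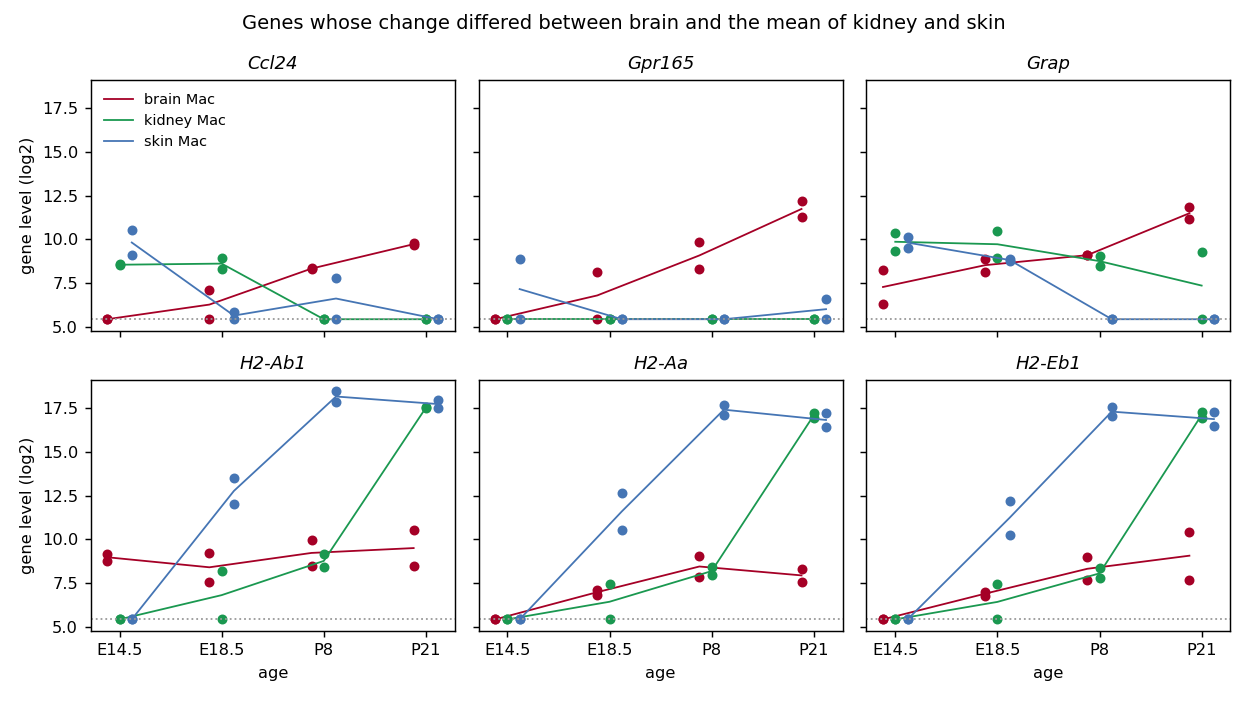
Levels (log2) of 6 genes in Mac of brain, kidney and skin at E14.5, E18.5, P8 and P21. Points are libraries, 2 per tissue and age, lines join the means of each age and the dotted line is the floor of 5.43. H2-Ab1, H2-Aa and H2-Eb1 reached at least 16.45 in skin after birth and in kidney at P21, and stayed at or under 10.56 in brain.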

How the data were processed

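The authors deposited normalized log2 values, 1 for each of 37521 Ensembl transcripts in each library, with base 2 inferred from their range. The sources used here do not give the normalization. Per the submitters' processing notes, Bowtie 1.1.1, DESeq2 and mm10 were used, with no role stated. No counts were given, and depth is unknown. The lowest values of a library form a band, at 2.33 to 4.93, and the floor was set 0.5 above the highest band, at 5.43. Of the transcripts, 36714 were matched to GENCODE symbols (14189 genes). The part of each transcript above the floor was summed per gene on the linear scale, the floor added, and the sum returned to log2. Genes at 6.43 or more in at least 2 libraries of a fit entered limma 3.58.1 (R 4.3.3, intensity trend, 1 mean per age, Benjamini-Hochberg adjustment). A call needed an adjusted p under 0.05 and a log2 difference of at least 1. The fits held 8 libraries (the planned main comparison), all 17 brain Mac libraries, and 24 libraries for the difference of brain from kidney and skin. In the fit of 17 libraries, the comparisons of P8 and of P21 with the embryonic ages were added after the data were seen. So was that of P21 with P8, which was planned in the 8 libraries only.

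Named genes are the called genes with the largest differences each way (up to 12 for the postnatal against embryonic contrast, 5 otherwise) whose higher side averaged at least 8 and, except for the tissue difference, whose sides did not overlap, with examples from 34 gene lists. For the tissue difference, the level of at least 8 was required in brain only. The comparison, its markers and the lists were chosen with earlier results of these data known. The scripts were tested on simulated data. Alternatives were the filter, the floor, the gene summary, normalization, the trend, each library left out, and a replicate block. The library set as a covariate was run in the fit of 8 libraries only, for the sides and for P21 against P8. The calls of the fit of all brain Mac libraries and of the tissue difference were not tested for the library set. Promoters are RefSeq (GRCm38.p6), matched by symbol. Values of some genes are not reported here.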

Additional observations from a re-analysis of the deposited data

Results flagged for a closer look

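The change between the postnatal and the embryonic side differed between brain and the mean of kidney and skin, by the interaction term of the limma fit, for 120 genes. Among those named, the brain change was more positive for Ccl24 (by 5.60 on the log2 scale), Grap (5.20), Cdadc1 (5.13), Fcrl1 (5.06) and Gpr165 (4.58). It was more negative for the MHC class II genes H2-Ab1 (-7.27), H2-Aa (-5.67) and H2-Eb1 (-5.18), and for Thap11 (-5.62) and Eif2b2 (-4.76). Thap11 was at the floor in both P21 brain libraries and at 5.54 in P8 replicate 2, but at 9.65 in P8 replicate 3, against 9.52 to 9.99 in the embryonic brain libraries. Groups of 2 libraries are too small for the search for single outlying values.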

How the results depend on the processing

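With no read counts, depth sets an unknown limit on low genes, and 2 libraries per age limit every test. In the 8 libraries the count of calls between the sides stayed 0 under all alternatives run except the fit of all 17 libraries (40) and P21 alone against the embryonic ages (4). The 5 calls of P21 against P8 became 1 with no filter, with the highest transcript per gene, with no intensity trend and with the library set as a covariate, 0 with the replicate block, 581 in the fit of 17 libraries, and 0 to 1 with each library left out. E18.5 against E14.5 gave 0 calls under every alternative run.

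In the fit of 17 libraries, the 40 calls between the sides became 17 with a floor 1 higher, 4 with quantile normalization, 72 with no intensity trend, 1 with the replicate block and 0 to 98 with each library left out. Median centring gave 51, 17.6% of them higher in place of 50%. The 581 calls of P21 against P8 became 310 with quantile normalization, 167 with the replicate block and 149 to 1039 with each library left out. The 573 of P21 against the embryonic ages became 341 with quantile normalization and 332 to 1055 with each library left out. A floor 1 higher moved the share of higher genes among these calls to 52.9% and 60.4%. The 9 of P8 against the embryonic ages became 23 with no filter, 1 with a floor 1 higher, 3 with quantile normalization, 0 with median centring, no intensity trend or the replicate block, and 0 to 29 with each library left out. The 120 calls of the tissue difference became 76 with median centring, 102 with the replicate block and 57 to 217 with each library left out. The cause of these shifts was not tested.

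Mbp reversed with the highest transcript per gene, at -0.72 for P21 against the embryonic ages (limma adjusted p = 0.72) and -1.56 for P21 against P8 (limma adjusted p = 0.427), since that transcript is not among those that rose. Deviations of libraries with the same replicate number correlated at -0.103 to 0.086 across genes. Offsets among the lowest values, however, correlated at 0.598 between P8 replicate 2 and P21 replicate 2, against 0.084 between P8 replicate 3 and P21 replicate 2. Whether the numbers mark shared handling was not tested.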

Other observations

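More genes dropped below a level of 6.43 at P21 than came above it. Of the genes tested, 359 were at 6.43 or above in all P8 and late embryonic libraries and under it in both P21 libraries, while 35 showed the reverse. The P21 libraries also had the fewest transcripts above the floor, 18554 and 18474, against 18895 to 23660 in the P8 and late embryonic libraries. The part of that number in this pattern was not tested. For P8 against the late embryonic libraries the pattern ran the other way, with 127 genes above in both P8 libraries and under in all embryonic ones, and 60 the reverse. Shared by P8 and P21, 14 genes were above and 20 were under. C9orf72, a gene of autophagy and lysosome regulation known from inherited motor neuron disease, was at the floor in both P21 libraries, with 10.52 and 11.18 at P8, 13.09 and 11.37 at E14.5 and 10.90 and 10.73 at E18.5. P3h2, a collagen prolyl hydroxylase, had 12.10 and 12.34 at P21, with 5.43 and 9.80 at P8, and was at the floor in 3 of the 4 embryonic libraries.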
